A study of Mus musculus with 4 samples.

Results

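The AP-1 transcription factors were examined in sorted basal keratinocytes, with and without Srf, of mice at embryonic stage E16.5. The family was taken as 8 genes, chosen by gene symbol: Fos, Fosb, Fosl1 and Fosl2 (the Fos proteins), Jun, Junb and Jund (the Jun proteins) and Atf3. They are 8 of 18193 genes named on the array and were read by 12 probe sets, of which 11 lay above the filter on low signals and were tested. Each of the 8 genes had at least 1 tested probe set. AP-1 is a dimer of basic leucine zipper (bZIP) proteins: a Fos protein pairs with a Jun protein, while Jun proteins can also pair with each other or with ATF proteins, and the dimer binds short DNA elements called TRE and CRE. Many of these genes are immediate early genes, transcribed within minutes of growth factor or stress signals. The Fos gene is a textbook target of serum response factor (SRF, encoded by Srf), which acts there with ternary complex factors, and in epidermis AP-1 proteins regulate keratinocyte proliferation, differentiation and the response to wounding.

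The 4 samples were cells sorted by flow cytometry on α6 integrin, a surface protein of basal keratinocytes, and on YFP. The 2 cKO samples, titled Ko_1210 and KO_1261, carried SRF fl/fl, ROSA26 YFP fl/fl and K14-Cre. The 2 het samples, titled het_1210 and het_1261, carried SRF fl/+ with the same reporter and Cre according to the series' design text, which calls them wild type. All 4 therefore carried K14-Cre, which is active in keratinocytes that express keratin 14, and at least 1 floxed Srf allele, so no group with intact Srf and no Cre is part of the comparison. The same 2 numbers recur in the titles of both groups and no label says what they mark. They are called here the first pair (Ko_1210 and het_1210) and the second pair (KO_1261 and het_1261), a name for the shared number only. No label says either whether a sample was 1 embryo or a pool, so the spread between samples may be in part technical. Each sample has 1 array, with 1 signal per probe set computed by the authors with MAS5. Signals have no fixed unit, so differences were taken for 1 probe set across arrays. Signals of different probe sets were set together to filter, to pick the brightest and to sum markers, which gives no ratio between genes.

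Srf itself had a signal of 47.9 in Ko_1210 and 80.4 in KO_1261, against 834 in het_1210 and 1108 in het_1261. The defining basal markers were present: all 8 of the basal keratinocyte genes examined, Krt5, Krt14 and Itga6 among them, were above the filter. The pairs also differed from each other. Added poly-A control RNAs gave in the second pair 0.398 times (cKO) and 0.409 times (het) the signal that they gave in the first pair, at 12 of 12 probe sets, and hybridization controls gave 0.577 and 0.526 times, at 18 of 18. The ratio of 3' to 5' signal of Gapdh, a measure of RNA integrity, was 0.771 in KO_1261 and 0.914 in Ko_1210, and 0.782 in het_1261 and 0.871 in het_1210. The same ratio of beta-actin was 2.43 in KO_1261 and 3.12 in Ko_1210, and 2.0 in het_1261 and 2.75 in het_1210, so its 3' signal was the higher one on all 4 arrays. Sex-linked transcripts also differed, since Xist had signals of 22802 in KO_1261 and 14338 in het_1261, against 115 in Ko_1210 and 62.6 in het_1210. The Y-linked Eif2s3y had a signal of 3.01 in KO_1261 and 834 in het_1261, against 1386 in Ko_1210 and 1485 in het_1210. Both transcripts were thus high in het_1261. Sex-linked signals therefore differed along with the pair and, within the second pair, along with genotype. What part these differences had in the results below was not tested. In bulk samples, fewer cells that express a gene and less RNA per cell cannot be told apart.

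Promoter sequences are shown to set the members' regulatory elements beside their signals. Sequences from 250 bases before to 50 bases after the start of the gene were taken from RefSeq (GRCm38.p6), which matched 7 of the 8 members, all but Fosl1. They were searched on both strands, with overlaps allowed, for the TRE (TGANTCA), the CRE (TGACGTCA), the variant elements TGACATCA and TTACGTCA, the CRE core TGACG and the CArG box bound by SRF. The 5 member promoters with a match are given 5′ to 3′ on the strand of the gene, with the matches in capitals.
Fos promoter: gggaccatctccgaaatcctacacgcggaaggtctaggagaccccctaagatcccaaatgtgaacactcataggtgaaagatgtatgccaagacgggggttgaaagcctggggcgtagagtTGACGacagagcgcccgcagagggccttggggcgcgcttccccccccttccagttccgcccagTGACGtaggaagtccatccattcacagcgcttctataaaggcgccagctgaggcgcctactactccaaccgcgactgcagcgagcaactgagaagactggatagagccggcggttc
Fosb promoter: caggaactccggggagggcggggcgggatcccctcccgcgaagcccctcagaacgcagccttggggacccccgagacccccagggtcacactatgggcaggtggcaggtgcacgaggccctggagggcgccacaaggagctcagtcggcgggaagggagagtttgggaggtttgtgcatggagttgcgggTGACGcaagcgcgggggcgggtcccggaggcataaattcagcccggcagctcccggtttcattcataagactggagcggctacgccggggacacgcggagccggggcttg
Jun promoter: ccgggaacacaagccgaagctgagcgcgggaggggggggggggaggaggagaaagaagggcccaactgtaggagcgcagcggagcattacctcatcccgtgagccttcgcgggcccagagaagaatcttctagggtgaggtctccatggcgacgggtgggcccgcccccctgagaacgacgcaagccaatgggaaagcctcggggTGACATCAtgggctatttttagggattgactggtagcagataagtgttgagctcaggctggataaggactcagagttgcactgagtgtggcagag
Junb promoter: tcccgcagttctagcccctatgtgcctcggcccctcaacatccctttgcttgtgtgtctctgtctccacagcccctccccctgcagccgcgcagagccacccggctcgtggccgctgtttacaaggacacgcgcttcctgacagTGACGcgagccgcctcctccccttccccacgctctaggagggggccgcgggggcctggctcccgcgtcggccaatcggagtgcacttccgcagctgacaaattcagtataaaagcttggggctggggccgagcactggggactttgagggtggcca
Atf3 promoter: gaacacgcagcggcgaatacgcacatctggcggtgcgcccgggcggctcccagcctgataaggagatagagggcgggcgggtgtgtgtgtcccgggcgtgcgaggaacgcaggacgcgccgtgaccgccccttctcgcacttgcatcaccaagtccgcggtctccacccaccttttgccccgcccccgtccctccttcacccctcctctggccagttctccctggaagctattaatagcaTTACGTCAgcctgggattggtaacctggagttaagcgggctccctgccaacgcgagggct
These windows lie at chr12:85473640-85473939 (plus strand, Fos), chr7:19309996-19310295 (minus strand, Fosb), chr4:95052173-95052472 (minus strand, Jun), chr8:84978699-84978998 (minus strand, Junb) and chr1:191183284-191183583 (minus strand, Atf3). The Fos window holds TGACG at 129 and at 66 bases before the start, Fosb at 60 and Junb at 106. The Jun window holds TGACATCA at 45 bases before the start. The Atf3 window holds TTACGTCA at 10 bases before the start, and its last 5 letters, CGTCA, are the core on the other strand. Of all 32851 promoters in the table, 20.8% hold the core, 3.62% TGACATCA, 0.499% TTACGTCA, 7.81% the TRE, 1.79% the CRE and 1.63% a CArG box. The TRE, the full CRE and the CArG box were found in 0 of the 7 member windows, and the Fosl2 and Jund windows held none of the 6 motifs. A match is a description of these letters only, and the SRF element of Fos that is known from the literature lies farther upstream than this window reaches.

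The 8 genes were at their lowest on the same array. By the probe set with the highest mean signal, which represents a gene here, all 8 had their lowest signal on het_1210, as did 30.2% of the 11053 genes represented among the tested probe sets. For 3 of them Ko_1210 was nearly as low: Fosb (228 on het_1210 and 242 on Ko_1210), Fosl1 (198 and 208) and Fosl2 (3125 and 3252). The dimmer Fosl2 probe set was lowest on het_1261 and the dimmer Jund probe set on KO_1261. Their highest signal was on KO_1261 for Fosl1, Jun, Junb and Atf3 and on het_1261 for Fos, Fosb, Fosl2 and Jund. The range over the 4 arrays was 19.2-fold for Fosl1, 8.54-fold for Atf3, 7.48-fold for Junb, 7.22-fold for Fosb and 6.56-fold for Jun. It was 3.29-fold for Fos, 2.03-fold for Jund and 1.38-fold for Fosl2. The family thus held genes that varied widely between the arrays and 1 gene, Fosl2, that varied little.

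**Figure D1:**
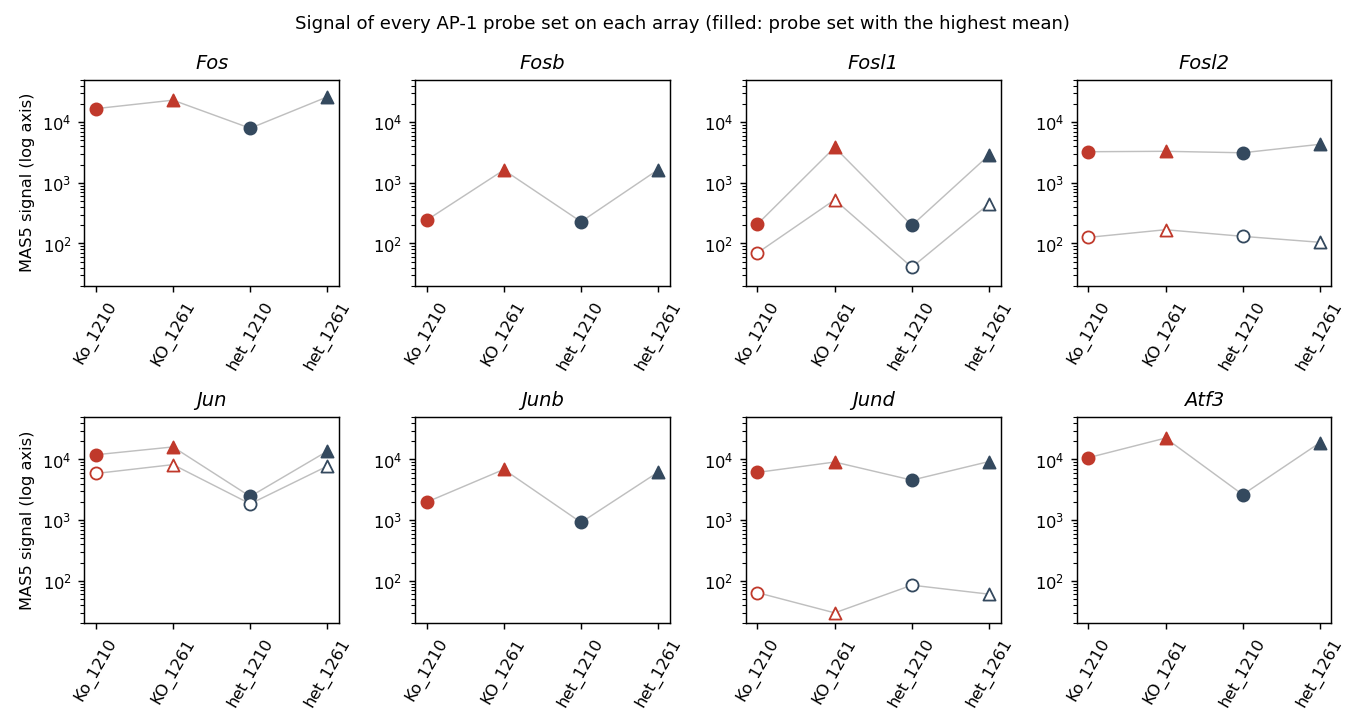
MAS5 signal (log axis) of all 12 probe sets of the 8 AP-1 genes on each array, with cKO in red, het in dark blue, the first pair as circles and the second pair as triangles. Filled symbols are the probe set with the highest mean signal and open symbols the other probe sets of that gene. Jun and Atf3 are lowest on het_1210, well below the other arrays, while Fosb and Fosl1 are low on both arrays of the first pair.

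The first comparison asks how the family differed in cKO cells. Within the first pair, Jun, Atf3, Junb and Fos were at least 2.10-fold higher in cKO, while Fosb, Fosl1 and Fosl2 differed by at most 1.06-fold. Within the second pair, the 8 genes differed by at most 1.34-fold in either direction. Past 1.5-fold, 4 of 8 genes were higher in cKO within the first pair, against 6.97% of all genes, and 0 of 8 within the second pair, against 2.08%. None of the 8 was lower past 1.5-fold within either pair, against 9.16% of all genes within the first pair and 5.19% within the second pair. The median of the 8 was 0.75 on the log2 scale within the first pair and 0.06 within the second pair, where the medians of all genes were -0.03 and -0.02. Each of these values sets 1 array against 1 array and has no test, and with 4 arrays no residual degrees of freedom are left to test whether the difference itself changed between the pairs.

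**Figure D2:**
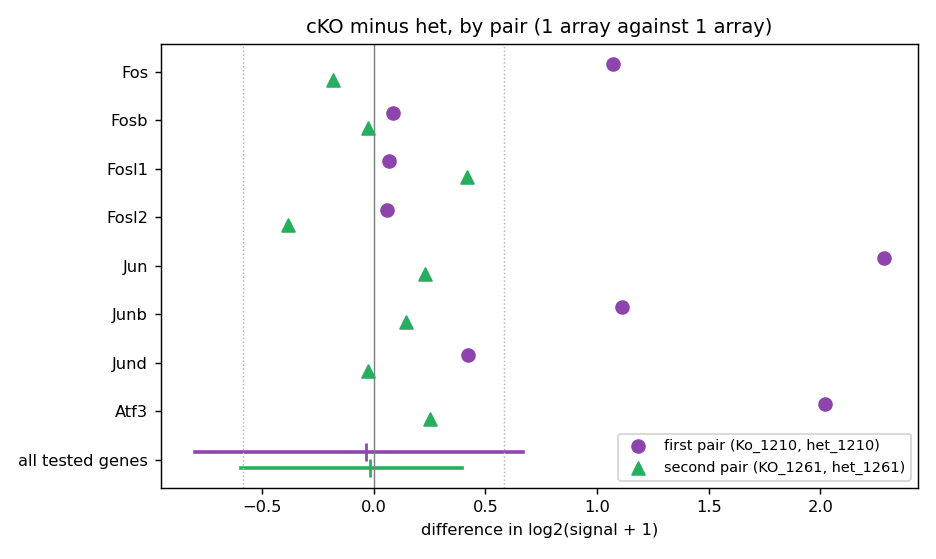
Difference in log2(signal + 1), cKO minus het, for the representative probe set of each AP-1 gene within the first pair (circles) and within the second pair (triangles), 1 array against 1 array. The bottom bars run from the 5th to the 95th percentile of all tested genes with their median, and dotted lines mark 1.5-fold. Jun, Atf3, Junb and Fos lie past 1.5-fold within the first pair, and all 8 genes lie inside it within the second pair.

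Of the Jun proteins, c-Jun (Jun) is the strongest activator in the dimer and is known to be induced through TRE-like elements of its own promoter. Jun had a signal of 11967 in Ko_1210 and 16115 in KO_1261, against 2454 in het_1210 and 13731 in het_1261. Only het_1210 stood apart, and the groups overlapped. The difference in log2 signal was 2.28 within the first pair (4.87-fold) and 0.23 within the second pair (1.17-fold). The other Jun probe set gave 5877 in Ko_1210 and 8232 in KO_1261, against 1857 in het_1210 and 7785 in het_1261, the same order of arrays, with differences of 1.66 and 0.08. Junb, which can oppose c-Jun and restrains proliferation, had signals of 1982 in Ko_1210 and 6861 in KO_1261, against 917 in het_1210 and 6217 in het_1261. Its differences were 1.11 within the first pair and 0.14 within the second pair, and both cKO arrays were above the het array of their pair while the groups as a whole overlapped. Jund, the most broadly and steadily expressed Jun protein, had signals of 6124 in Ko_1210 and 9084 in KO_1261, against 4569 in het_1210 and 9256 in het_1261. It was 0.42 higher in cKO on the log2 scale within the first pair and differed by -0.03 within the second pair. The other Jund probe set lay below the filter, with signals of 63.8 in Ko_1210 and 29.6 in KO_1261, against 84.8 in het_1210 and 60.2 in het_1261, and was not tested.

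Atf3, a stress-induced bZIP protein that pairs with Jun proteins and represses or activates according to its partner, followed the order of Jun. Its signal was 10697 in Ko_1210 and 22540.4 in KO_1261, against 2637 in het_1210 and 18933 in het_1261. The difference was 2.02 within the first pair (4.06-fold) and 0.25 within the second pair (1.19-fold), so the cKO array was the higher one within each pair, while Ko_1210 lay below het_1261.

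Of the Fos proteins, which cannot pair with themselves and rely on a Jun partner, c-Fos (Fos) is the classic immediate early member. Fos had a signal of 16680.2 in Ko_1210 and 23030.3 in KO_1261, against 7933 in het_1210 and 26128 in het_1261. It was higher in cKO by 1.07 on the log2 scale within the first pair and differed by -0.18 within the second pair, so the het arrays were the lowest and the highest of the 4. Fosb, an inducible relative of c-Fos, had signals of 242 in Ko_1210 and 1627 in KO_1261, against 228 in het_1210 and 1654 in het_1261. The genotypes were nearly level within each pair, at 0.08 and -0.02. Fosl1 encodes Fra-1, which lacks the activation domain of c-Fos and is abundant in migrating keratinocytes. It had a signal of 208 in Ko_1210 and 3835 in KO_1261, against 198 in het_1210 and 2869 in het_1261, with differences of 0.07 within the first pair and 0.42 within the second pair. The other Fosl1 probe set, with 69.9 in Ko_1210 and 525 in KO_1261, against 40.5 in het_1210 and 452 in het_1261, gave 0.77 and 0.22, and its het_1210 signal lay below the filter of 65.9. Fosl2, which encodes Fra-2, had signals of 3252 in Ko_1210 and 3305 in KO_1261, against 3125 in het_1210 and 4313 in het_1261. It differed by 0.06 within the first pair and -0.38 within the second pair. Its other probe set, with 126 in Ko_1210 and 169 in KO_1261, against 131 in het_1210 and 105 in het_1261, gave the opposite signs, at -0.06 and 0.68.

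Over all 4 arrays, 0 of the 8 genes passed in limma without a block, where 0 of 11053 genes and 0 of 22518 probe sets passed. At an unadjusted p under 0.05 there were 0 of the 8 genes and 66 of all genes (0.597%). Both cKO arrays were above both het arrays for 0 of the 8, against 8.17% of all genes. The log2 difference was 1.26 ± 0.83 for Jun, 1.14 ± 0.99 for Atf3, 0.63 ± 1.06 for Junb and 0.44 ± 0.61 for Fos (estimate ± standard error, n = 2 each). It was 0.24 ± 1.81 for Fosl1, 0.20 ± 0.43 for Jund, 0.03 ± 1.27 for Fosb and -0.16 ± 0.25 for Fosl2. In this fit the difference between the pairs counts as spread within each genotype, so these standard errors hold it too. With the pair as a block, Jun rose by 1.26 ± 0.22 (limma adjusted p = 0.00115) and Atf3 rose by 1.14 ± 0.20 (adjusted p = 0.00127), so 2 of 8 genes passed as higher, against 0.253% of all genes, and 0 as lower, against 0.624%. The other Jun probe set also passed, with 0.87 ± 0.19 (adjusted p = 0.0144), while Junb (0.0793) and Fos (0.299) did not. That fit has 1 residual degree of freedom and takes most of its variance from all probe sets. With a robust prior, which lets probe sets that vary widely keep a larger variance, 0 of the 8 passed, against 0.118% of all genes as higher and 0.335% as lower (adjusted p = 0.868 for Jun and 0.865 for Atf3). Without het_1210 the difference, now with the pairs unbalanced between the groups, was 0.02 for Jun, -0.29 for Atf3, -0.75 for Junb and -0.41 for Fos.

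The next comparison sets the second pair against the first. Of the 8 genes, all 8 were higher on both arrays of the second pair than on both of the first, against 25.5% of all genes. In limma without a genotype term, 6 of 8 passed as higher, against 7.95% of all genes, and 0 as lower, against 12.7%. That fit takes the cKO array and the het array of a pair as replicates. Fosl1, Fosb and Junb differed by 4.84-fold to 16.2-fold, Atf3 and Fos by 3.89-fold and 2.13-fold and Jund by 1.73-fold. Within cKO 4 of 8 were higher past 1.5-fold, against 9.39% of all genes, and within het 7 of 8, against 16.1%, and 0 of 8 were lower in either, against 11.7% and 21.0%. The same 4 genes, Fosb, Fosl1, Junb and Atf3, were past 1.5-fold within both genotypes, against 6.27% of all genes. The median of the 8 was 0.82 within cKO and 2.62 within het on the log2 scale, and the medians of all genes were -0.12 and -0.14.

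**Figure D3:**
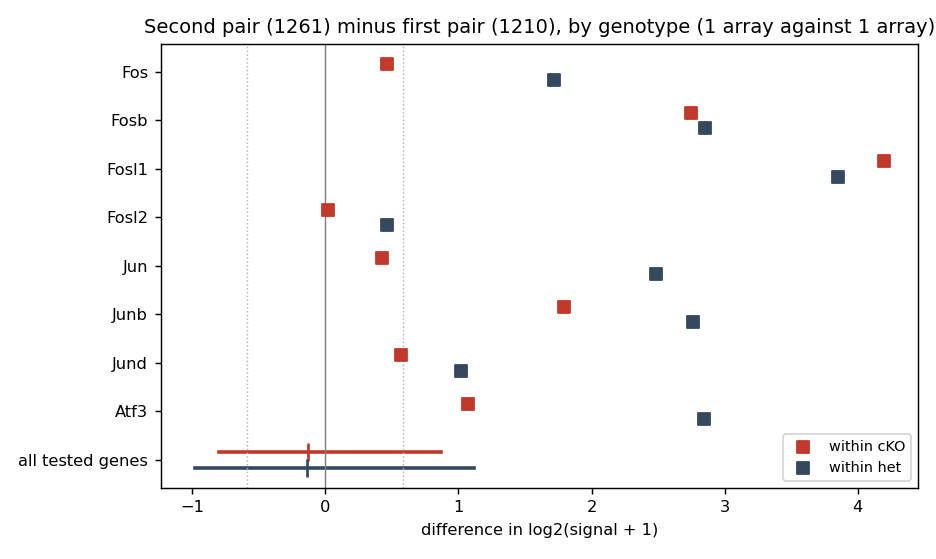
Difference in log2(signal + 1), second pair minus first pair, for the representative probe set of each AP-1 gene within cKO (red) and within het (dark blue), 1 array against 1 array. The bottom bars run from the 5th to the 95th percentile of all tested genes with their median, and dotted lines mark 1.5-fold. Fosb and Fosl1 differ by a like amount within both genotypes, while Jun, Atf3, Junb and Fos differ more within het.

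Fosl1 had the widest difference of the family. Its signal was 3352 ± 683 in the second pair and 203 ± 6.93 in the first (SD, n = 2). Here and below, each such SD is over 1 cKO and 1 het array and so holds the genotype difference. The log2 difference of Fosl1 was 4.02 ± 0.19 (limma adjusted p = 1.87e-04), with 4.20 within cKO and 3.85 within het. A difference at least as large was found in 0.0362% of all genes, Fosl1 included. The other Fosl1 probe set gave 3.17 ± 0.33 (adjusted p = 0.00108). Fosb, at 1641 ± 19.2 in the second pair and 235 ± 9.75 in the first, rose by 2.80 ± 0.17 (adjusted p = 3.06e-04), with 2.74 within cKO and 2.85 within het. For these 2 genes the arrays of the second pair were high and those of the first low, and the genotypes within a pair lay close together. Junb, at 6539 ± 455 in the second pair, against 1449 ± 753 in the first, rose by 2.28 ± 0.31 (adjusted p = 0.00303), with 1.79 within cKO and 2.76 within het. Jund, at 9170 ± 122 in the second pair, against 5347 ± 1100 in the first, rose by 0.79 ± 0.16 (adjusted p = 0.0112), with 0.57 within cKO and 1.02 within het.

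Atf3, Fos and Jun differed by pair mainly within het. Atf3 rose by 1.96 ± 0.53 (adjusted p = 0.0333), with 1.08 within cKO and 2.84 within het, and Fos rose by 1.09 ± 0.29 (adjusted p = 0.033), with 0.47 and 1.72. Jun, with 1.46 ± 0.59, did not pass (adjusted p = 0.112) and gave 0.43 within cKO and 2.48 within het. Fosl2 did not pass at either probe set, with 0.24 ± 0.16 and 0.05 ± 0.34, and after median centring of the arrays these were -0.0013 and -0.20. After that centring the calls of Fos and Jund ended, and without the variance trend those of Atf3, Fos and Jund did. With no filter on low signals the calls of Atf3 (adjusted p = 0.0652) and Fos (0.0692) ended. With genotype as a term Jun passed too (adjusted p = 2.15e-06), and 7 of 8 genes were higher, against 12.9% of all genes, and 0 lower, against 19.1%. With a robust prior in that fit the calls of Jun (0.486), Atf3 (0.356) and Fos (0.381) ended, leaving 4 of 8 higher, against 12.5% of all genes, and 0 lower, against 19.0%. With a robust prior and no genotype term the calls of Atf3 (0.247) and Fos (0.118) ended, and 4 of 8 (Fosl1, Fosb, Junb and Jund) passed as higher, against 8.06% of all genes, and 0 as lower, against 13.0%. Without het_1210 the difference was 0.31 for Jun, 0.56 for Fos, 0.95 for Atf3 and 1.72 for Junb, and without Ko_1210 it was 2.60, 1.63, 2.97 and 2.83 for the same genes. Jun passed without Ko_1210, without KO_1261 and without het_1261. The added control RNAs were lower in the second pair, and the part of the pairs' technical difference in these results was not tested.

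Genes around AP-1 were read from 4 lists, chosen with earlier results of these data known. Of 25 other bZIP proteins that could join or compete with AP-1 dimers, 22 were named on the array and 19 tested. Between cKO and het 0 of the 19 passed in limma with the pair as a block, and the median log2 difference was 0.05. The brightest of them were Atf4, the effector of the integrated stress response, at 0.26 ± 0.13, Cebpb, at -0.21 ± 0.15, and Atf2, which pairs with c-Jun on CRE-like sites, at 0.37 ± 0.16. By pair 7 of the 19 were higher and 1 lower in the second pair, against 7.95% and 12.7% of all genes, with a median of 0.16. The small Maf proteins Maff and Mafk, chosen once their values were known, rose by 2.14 ± 0.23 and 1.79 ± 0.19 there.

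Of 27 kinases and ternary complex factors that signal to AP-1, 20 were tested. None passed between cKO and het with the pair as a block (0 of 20, median 0.03), and Map2k3, Mapk14 and Mapk13, the brightest, differed by -0.04, 0.10 and -0.16. By pair 3 of the 20 were higher and 1 lower, against 7.95% and 12.7% of all genes. They were Mapk8 (0.82), which encodes the c-Jun kinase JNK1, Map3k7 (0.93) and the ternary complex factor Elk4 (0.87), with Map2k2 at -0.98, the 4 chosen once their values were known. The median by pair was 0.34.

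Of 34 genes known as AP-1 targets in keratinocytes or fibroblasts, 24 were tested, with a median of 0.12 between cKO and het. With the pair as a block 2 were higher and 0 lower, against 0.253% and 0.624% of all genes, each mainly within 1 pair. The cornified envelope precursor Sprr1b rose by 1.31 ± 0.33 (adjusted p = 0.0456), with 2.88 within the first pair and -0.26 within the second pair, and the wound keratin Krt6a rose by 1.32 ± 0.33 (adjusted p = 0.0437), with 0.02 and 2.63. Both calls ended with the robust prior (0.91 and 0.874). By pair 5 of the 24 were higher and 1 lower in the second pair, against 7.95% and 12.7% of all genes. The higher ones were Ptgs2 (2.47), Sprr1a (2.35), Hbegf (2.18), Lor (1.96) and Vegfa (1.60), and the lower one was the cyclin Ccnd1 (-0.95), chosen once their values were known. The call of Lor, with 0.74 within cKO and 3.17 within het, ended with the robust prior (adjusted p = 0.15).

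Of 25 immediate early genes outside AP-1, all 25 were tested, and 17 were higher and 1 lower in the second pair, against 7.95% and 12.7% of all genes, with a median of 1.40 on the log2 scale, beside -0.13 for all genes and 1.71 for the 8 AP-1 genes. Between cKO and het with the pair as a block, 6 of the 25 rose and 3 fell, against 0.253% and 0.624% of all genes. Dusp1 (1.46, with 2.65 within the first pair and 0.26 within the second pair), Zfp36 (1.37, with 2.51 and 0.22) and Ppp1r15a (0.90, with 1.36 and 0.44) differed more within the first pair, as Jun and Atf3 did. The Egr genes fell, with Egr2 at -2.92 (-1.76 and -4.08), Egr1 at -2.13 (-1.49 and -2.76) and Egr3 at -1.80 (-1.52 and -2.08), so they were lower in cKO within each pair. With the robust prior 1 of the 6 rises (Gadd45b, at 0.76, chosen once its values were known) and 1 of the 3 falls (Egr3) still passed, and the calls by pair of Ier3, Zfp36, Zfp36l1 and Ccn1 ended.

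**Figure D4:**
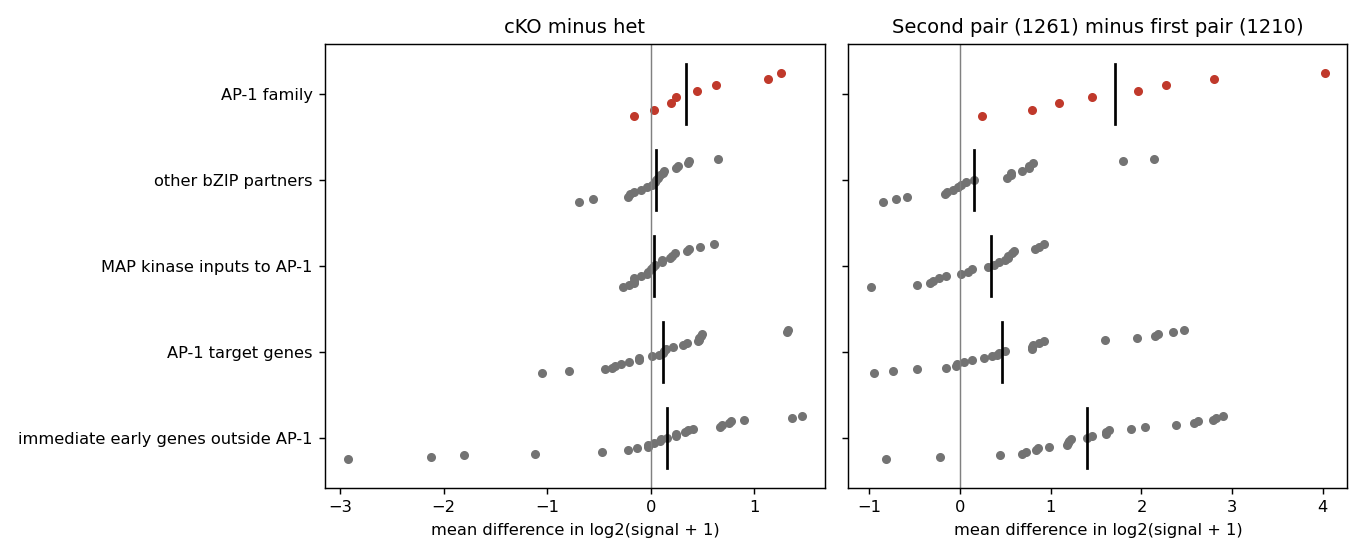
Mean difference in log2(signal + 1) of each tested gene (points) of the AP-1 family and of the 4 lists around it, cKO minus het (left) and second pair minus first pair (right), with the median of each set as a vertical line. The median by pair is 1.71 for the AP-1 family and 1.40 for the other immediate early genes. It lies between 0.16 and 0.46 for the 3 other lists.

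The genes with patterns most like 3 members were found by the root mean square distance between log2 signals, each centred on its mean over the 4 arrays. The members were Fosl1, Atf3 and Junb, which had the widest range over the arrays. Closest to Fosl1 were Gm4274 (0.299), the midline ubiquitin ligase Mid1 (0.472), Gdap10 (0.532), the cAMP phosphodiesterase Pde4b (0.549) and the MAP kinase kinase kinase Map3k8 (0.553). Closest to Atf3 were Gm527 (0.125), Dbh (0.193), Orm1 (0.238), the keratin Krt77 (0.257) and the member Jun (0.268). Closest to Junb were LOC102631979 (0.0339), the proapoptotic Pmaip1 (0.149), the NF-κB inhibitor Tnfaip3 (0.15), Mir22hg (0.151) and Gm4432 (0.164). Several of these were dim: on het_1210 the signals of Gm4274 (20.3), Gdap10 (29.8), Gm527 (40.4), Dbh (18.3), Orm1 (33.7) and Gm4432 (39.9) lay below the filter. Within the family, Jun and Atf3 lay 0.268 apart, Fos and Jund 0.279, Fosl2 and Jund 0.329 and Junb and Atf3 0.36, while Fosl1 and Fosl2 lay 1.91 apart. These distances rest on 4 arrays and describe likeness over them only.

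**Figure D5:**
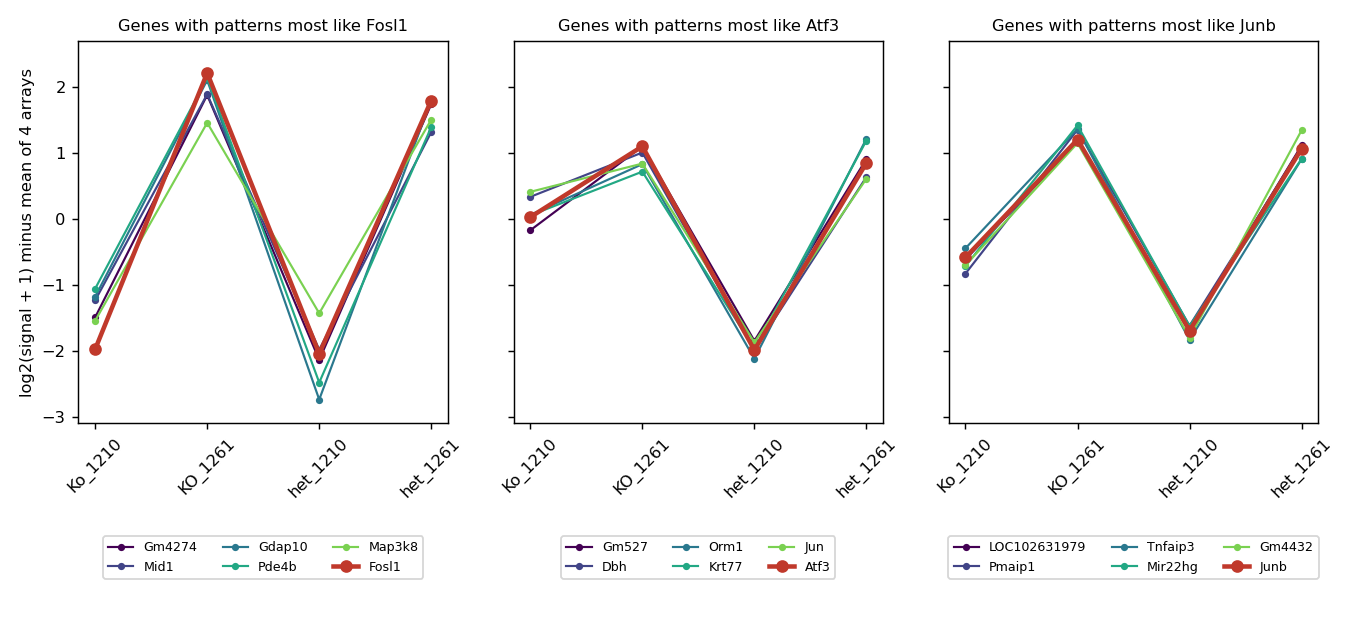
Log2(signal + 1) minus its mean over the 4 arrays for Fosl1, Atf3 and Junb (thick red lines) and the 5 genes closest to each (thin lines). The Fosl1 set is high on both arrays of the second pair, the Atf3 set is lowest on het_1210, and the Junb set lies between these patterns.

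Markers of other cells were read in the same contrasts, and their part in the AP-1 results was not tested. By pair, 0 of the tested fibroblast, immune, melanocyte and endothelial markers passed in limma. Of the tested suprabasal and periderm markers, 1 of 7 and 1 of 4 passed as higher in the second pair, against 7.95% of all genes. The same numbers passed as lower, against 12.7%. Of 8 dermal fibroblast markers 8 were above the filter, with a summed signal of 34678 in Ko_1210 and 36063 in KO_1261, against 46478 in het_1210 and 39253 in het_1261. With the pair as a block 3 of the 8 (Col3a1, Twist2 and Vim) fell, against 0.624% of all genes. With the robust prior 0 of them passed, against 0.335% of all genes as lower. The differences of Dcn (0.06) and Pdgfra (0.75) were above 0. Of 8 suprabasal keratinocyte markers 7 were tested, with a sum of 91936 in Ko_1210 and 73999 in KO_1261, against 145923 in het_1210 and 93553 in het_1261. With the pair as a block 3 of the 7 (Krt1, Krt10 and Sbsn) fell, against 0.624% of all genes. All 3 also passed with the robust prior (limma adjusted p = 0.0468, 0.00413 and 0.036), against 0.335% of all genes. Lor and Ivl, which are also in the AP-1 target list, were higher in cKO within the first pair (1.68 and 1.75). Within the second pair they were lower (-0.75 and -0.78). Of 5 periderm markers 4 were tested and 0 passed between cKO and het, with a sum of 11828 in Ko_1210 and 8630 in KO_1261, against 22860 in het_1210 and 9249 in het_1261. The sums of all 7 marker lists were highest on het_1210, the array on which all 8 AP-1 genes were lowest by their brightest probe set. The basal keratinocyte sum was 187494 in Ko_1210 and 141498 in KO_1261, against 199626 in het_1210 and 146852 in het_1261. These sums are set mainly by the brightest genes, such as Krt17, with 22346 of the periderm sum on het_1210. Other tested markers went the other way: Trp63, Itga6, Cdh3, Lor, Ivl and Pdgfra were lowest on het_1210. Of 7 immune markers 1 was above the filter, with Ptprc and Cd207 below it on all 4 arrays, and the sum ran from 172 to 346 in cKO and from 467 to 579 in het. The 1 tested, Laptm5, fell by 1.47 ± 0.36 in cKO with the pair as a block (adjusted p = 0.0367), a call that ended with the robust prior (0.0682). Melanocyte markers (4 of 7 tested) summed to 707 to 723 in cKO and 726 to 1314 in het, with Mlana and Tyrp1 not tested, and endothelial markers (4 of 6) to 334 to 348 in cKO and 451 to 508 in het, with Pecam1 not tested.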

How the data were processed

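Expression arrays of 2 cKO and 2 het samples were compared. The deposited table gives, for each probe set, a linear intensity (the MAS5 signal) that the authors computed, per the submitters' processing notes. The mean with 2% trimmed at each end was 500.0 on all arrays, so changes are relative to that mean, and medians ran from 63.7 to 82.5. For arrays, the number of samples limits the precision.

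Of 45101 probe sets, 64 controls were left out. Gene symbols came from the platform annotation, updated by Entrez identifier: 34945 probe sets had 1 symbol, 932 several and the rest none, and only the first were named. Where a gene had several probe sets, the brightest on average stands for it. Values were taken as log2(signal + 1), so fold changes are on that scale. The 22518 probe sets whose mean log2 signal passed the median over all (a signal of 65.9) were tested, for 11053 genes, with limma 3.58.1 in R 4.3.3 (eBayes with a variance trend, two-sided, Benjamini-Hochberg over tested probe sets, threshold 0.05). The fit without a block had 2 residual degrees of freedom. With 1 array a group, differences past 1.5-fold were counted. Same-numbered arrays deviated together from their group means (correlation 0.755 across probe sets), but 2 pairs and no label do not show that numbers pair animals. The number (the pair) was taken as a batch of unknown kind. It was left out of the main fit between cKO and het and entered as a block in an alternative fit. Members, lists and tests were chosen with earlier results of these data known. All members were named; of the 4 lists, up to 6 genes that passed with the block, by size of the difference, or else up to 3 by mean signal; and the 5 genes closest in pattern to each of the 3 members with the widest range. Alternatives were median centring, quantile scaling, a pseudocount of 16, no filter, other variance models, the pair or genotype as a further term, the median over a gene's probe sets and leaving out each array. Plots used matplotlib 3.10.9 (Python 3.11.15).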

Additional observations from a re-analysis of the deposited data

Results flagged for a closer look

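Some AP-1 probe sets moved in opposite directions between cKO and het within the pairs, and the difference between the pairs was not tested, since each rests on 1 array against 1 array. On the log2 scale, Fos differed by 1.07 within the first pair and -0.18 within the second pair. Jund differed by 0.42 and -0.027, and Fosb by 0.084 and -0.024. The brighter Fosl2 probe set differed by 0.057 within the first pair and -0.38 within the second pair, and the other one by -0.057 and 0.68. That dimmer Fosl2 probe set also moved in opposite directions by pair, with 0.42 within cKO and -0.32 within het.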

How the results depend on the processing

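Between cKO and het the count of passing AP-1 genes was 0 without a block under each scaling, pseudocount, filter and variance model tried, with 1 array left out, and with the median over a gene's probe sets. With the pair as a replicate block it was 2 (of 194 probe sets that passed), 2 with median centring (109) and 4 with quantile scaling (353), where Fos and Junb joined Jun and Atf3. It was 0 with a robust prior (84 probe sets) and 0 without the variance trend (0 probe sets). With 1 array left out, 0 to 5 probe sets passed. A lone remaining sample was then assumed to vary like the others. By pair, 5482 probe sets and 6 AP-1 genes passed, 2173 and 3 without the variance trend, and 2470 to 9628 probe sets and 6 to 7 AP-1 genes with 1 array left out (the fewest probe sets without KO_1261, the most without Ko_1210, and 3015 without het_1261). With quantile scaling 7 AP-1 genes, in place of 4, were past 1.5-fold by pair within cKO. Median centring moved the median difference of all genes by pair from -0.13 to -0.38 and the share of higher calls from 59.6% to 31.6%; with the block, between cKO and het, it moved them from -0.02 to 0.10 and from 42.3% to 67.9%.

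Some signs changed with 1 array left out, which leaves the pairs unbalanced, and others changed with all arrays kept. Between cKO and het, 14 differences of a probe set were reversed with 1 array left out and 30 were not. Leaving out 1 array, the cKO minus het difference ranged from -0.75 to 2.01 for Junb, -1.85 to 2.34 and -1.23 to 2.22 for the 2 Fosl1 probe sets, -1.40 to 1.46 for Fosb, -0.41 to 1.30 for Fos, -0.16 to 1.90 for the other Jun probe set, -0.31 to 0.71 for Jund, -0.29 to 2.56 for Atf3 and -0.40 to 0.069 for the brighter Fosl2 probe set, which was 0.075 as the median over probe sets. By pair, the dimmer Fosl2 probe set was -0.20 with median centring and -0.31 with quantile scaling, and ranged from -0.30 to 0.39 with 1 array left out, while the brighter was -0.0013 with median centring. The causes were not tested.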
